A study of Mus musculus with 7 samples.

Results

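Fabp7 and 8 other genes of fatty acid handling were examined in single oocytes at the germinal vesicle (GV) stage, grown but still arrested in meiosis. The genes were the fatty acid binding proteins Fabp7, Fabp3 and Fabp5, the perilipins Plin2 and Plin3, the diacylglycerol acyltransferases Dgat1 and Dgat2, and the carnitine palmitoyltransferases Cpt1a and Cpt2. Fabp7 was selected on its fold change in these same libraries, among the largest increases in the Setd1b cKO, and the others were joined to it by function. Of these 9 genes, 8 had a transcript of their own among the 33437 oocyte transcripts measured. The remaining gene, Fabp3, had none: the transcript labelled with its name lay on the opposite strand, overlapped the gene by 81 bases at its end, and covered Zcchc17.

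Oocytes came from 21-day-old C57BL6 females (C57BL/6OlaHsd in the methods), all of them Setd1b floxed/floxed per the labels. In 4 libraries the female was positive for Gdf9-Cre (Setd1b cKO), a recombinase driven by an oocyte promoter from early follicle growth, and in 3 libraries she was negative (Setd1b WT). The methods also count females with 1 conditional allele and Gdf9-Cre as WT, while the labels give all 3 WT females as floxed/floxed and Cre negative. Each library held the amplified cDNA of 1 oocyte, and no source says which oocytes shared a mother, so the errors and p-values given here measure the spread between oocytes, named by the replicate numbers of the labels. The amount of RNA in an oocyte was not measured, and a level is a share of a library.

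Free fatty acids are poorly soluble, and fatty acid binding proteins carry them through the cytosol. Surplus fatty acids are joined to glycerol, with DGAT enzymes adding the last acyl chain, and the resulting triacylglycerol is stored in lipid droplets that perilipins coat. To be burned, fatty acids enter mitochondria through the carnitine shuttle, where CPT1 on the outer and CPT2 on the inner membrane act in turn. Oocytes hold lipid droplets, and the oxidation of fatty acids is known to serve meiotic maturation and the early embryo.

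The 250 bases before the annotated start of Fabp7 are shown because Fabp7 carries the main difference. Those of Cpt2 are shown as an example of a member whose level did not separate the genotypes. CpG dinucleotides are in capitals, since the complex of SETD1B, a methyltransferase of histone H3 lysine 4, contains the CpG-binding protein CXXC1. Both sequences are from RefSeq on GRCm38.p6, 5′ to 3′ on the strand of the gene, and cover chr10:57784673-57784922 (plus strand) and chr4:107923590-107923839 (minus strand).
Fabp7: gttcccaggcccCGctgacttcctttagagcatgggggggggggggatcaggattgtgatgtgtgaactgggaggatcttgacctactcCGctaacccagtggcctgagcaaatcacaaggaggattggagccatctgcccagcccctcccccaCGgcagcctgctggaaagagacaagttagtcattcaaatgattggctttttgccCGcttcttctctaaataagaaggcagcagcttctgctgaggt
Cpt2: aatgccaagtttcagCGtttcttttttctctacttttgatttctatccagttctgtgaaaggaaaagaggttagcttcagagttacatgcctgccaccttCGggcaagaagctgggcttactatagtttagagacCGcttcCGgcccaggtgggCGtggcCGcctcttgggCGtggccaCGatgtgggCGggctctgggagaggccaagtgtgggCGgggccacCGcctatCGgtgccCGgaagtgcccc

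The Fabp7 window held 4 CpG and that of Cpt2 held 13. Among 32851 RefSeq windows of this length, the median was 6 CpG, with quartiles of 2 and 16. Of the 6 members with a sequence, Fabp7 had the fewest, Plin2 had 6, Plin3 7, Cpt1a 14 and Fabp3 17. Plin2 and Plin3 did not separate the genotypes either, and a link between CpG and level was not tested. None of the 6 windows held the letters TATAAA on either strand, which 12.4% of all windows held. The windows follow the annotated starts, and not every oocyte transcript begins there. The oocyte transcript of Fabp7 began 169 bases before the annotated start, so the last 169 of the 250 bases shown lie inside it. That of Cpt2 began 21 bases before the annotated start, and that of Plin2 57971 bases before it. Isoforms were merged in this transcript set, so these are the outermost starts. Which starts the oocytes used was not tested.

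Libraries held between 8582493 and 12972366 mapped reads, and values are in RPM, reads scaled to the mapped reads of the library. Of these reads, 13.2 to 16.4% fell outside the transcripts in cKO libraries and 9.57 to 9.90% in WT libraries, and 17267 to 18196 transcripts reached 1 RPM in the cKO against 16484 to 16819 in the WT. The part of this difference in the results below was not tested beyond a scaling to the reads within transcripts. For a transcript at 0, the depth allows up to 3 reads, which is 0.231 to 0.350 RPM and covers counting error only. The targeted gene Setd1b was at 2.68 to 16.7 RPM in the Setd1b cKO and at 8.61 to 17.7 RPM in the WT. Its transcript includes sequence outside the floxed part, so this level does not check the labels. The 11 oocyte markers were all present, and summed to 21004 to 21639 RPM in the Setd1b cKO and 24912 to 26055 RPM in the WT.

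Fabp7 (chromosome 10, 57784754 to 57788452, plus strand, GRCm38) was low in WT oocytes and 9.51 times as abundant on average in Setd1b cKO oocytes. The protein is known as the brain fatty acid binding protein, abundant in radial glia, and prefers long polyunsaturated fatty acids. In Setd1b WT oocytes 1 to 3, Fabp7 was at 3.89, 5.70 and 11.2 RPM, from 48, 74 and 120 reads. In Setd1b cKO oocytes 1 to 4, it was at 47.6, 34.2, 79.0 and 103 RPM, from 481, 415, 907 and 886 reads. Every cKO library lay above every WT library, and the lowest of the cKO values was 3.04 times the highest WT value.

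**Figure D1:**
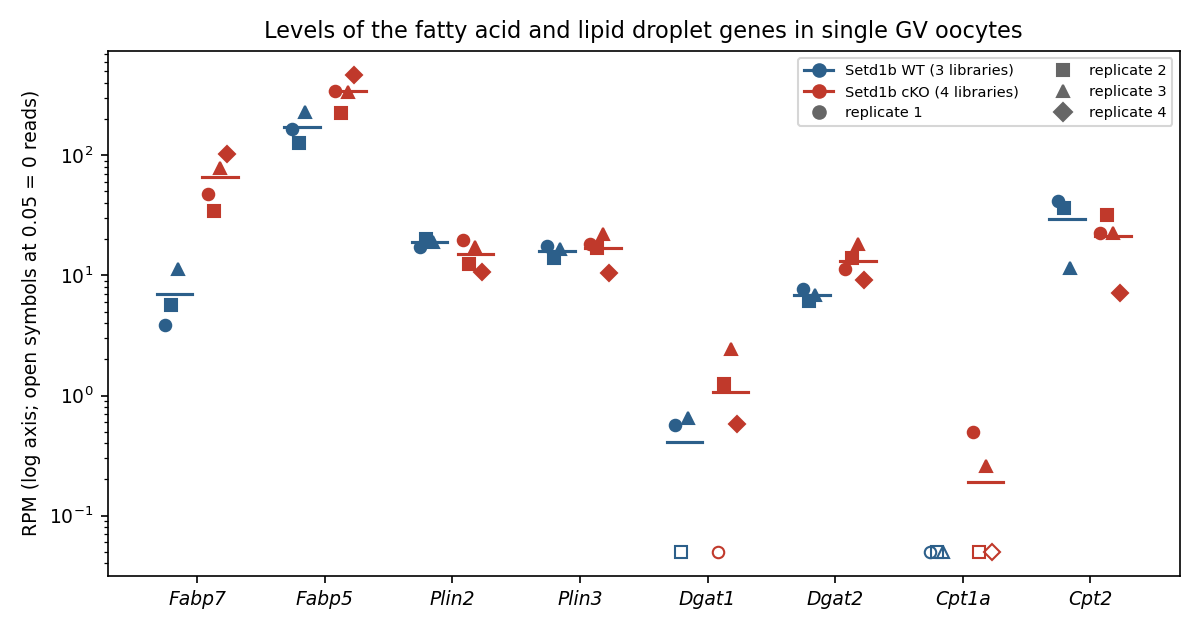
RPM (log axis) of the 8 members with a transcript of their own in each library, with replicates as symbols, genotype as colour and group means as bars; open symbols at the bottom had 0 reads. Fabp7 is the gene whose genotypes are farthest apart, with every cKO library above 34 RPM and every WT library below 12 RPM, while Plin2, Plin3 and Cpt2 overlap.

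The mean was 66.0 ± 31.1 RPM (SD, n = 4) in Setd1b cKO oocytes against 6.94 ± 3.82 RPM (SD, n = 3) in WT oocytes. On the scale of log2(RPM + 1) the fold change was 3.06 (SE 0.41). These values chose the gene, so they are a description and no test is given. Over 21 alternative settings the Fabp7 log2 fold change ran from 2.51, with a pseudocount of 5 RPM, to 3.42, without WT replicate 3. With each library centred on its median transcript it was 2.90, a setting that moved the median log2 fold change of all transcripts from 0.12 to -0.03. Scaled to the reads within transcripts it was 3.16, with a median of 0.19.

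Fabp7 differed between oocytes of a genotype as well. The coefficient of variation was 47.2% among cKO libraries and 55.1% among WT libraries. The highest cKO library was replicate 4 and the highest WT library replicate 3. Counting could separate Fabp7 from its relatives: of its 1176 windows of 75 bases, the read length, 0 occurred in a transcript of another GENCODE gene.

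The neighbours of Fabp7 were examined in a window of 200 kb on each side, which held a single transcript before it and a single one after it, neither overlapping Fabp7. Pkib, an inhibitor of protein kinase A, ended 45826 bases before it and was at 2.47, 4.53, 5.40 and 4.78 RPM in Setd1b cKO oocytes 1 to 4. In WT oocytes 1 to 3, Pkib was at 2.92, 3.70 and 2.81 RPM, so that the genotypes overlapped (log2 fold change 0.32, limma adjusted p = 0.597). Smpdl3a, a phosphodiesterase of the acid sphingomyelinase family, began 5922 bases after it and was between 0 and 0.693 RPM in every library, below the filter on low values.

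Fabp5 (chromosome 3, 10012548 to 10016607, plus strand), the epidermal fatty acid binding protein, was the most abundant member per kilobase in both genotypes. It was at 340, 224, 337 and 469 RPM in Setd1b cKO oocytes 1 to 4 and at 167, 126 and 227 RPM in WT oocytes 1 to 3. The genotypes overlapped by a single pair, cKO replicate 2 below WT replicate 3. The mean was 343 ± 100 RPM (SD, n = 4) in Setd1b cKO oocytes against 173 ± 50.9 RPM (SD, n = 3) in WT oocytes.

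The Fabp5 log2 fold change was 0.97 (SE 0.29, 95% confidence interval 0.34 to 1.61), short of 2-fold, with a limma adjusted p of 0.0758. Fabp5 was past the threshold, an adjusted p under 0.05 and over 2-fold, when cKO replicate 2 was left out (log2 fold change 1.16, limma adjusted p = 0.0455). It was also past it without cKO replicate 4 and WT replicate 3 together (1.02, limma adjusted p = 0.00857), a setting chosen after seeing the data. Scaled to the reads within transcripts, the Fabp5 log2 fold change was 1.05 (limma adjusted p = 0.0556). Over the 21 alternatives its adjusted p ran from 0.00857 to 0.282. Of the 913 windows of Fabp5, 110 (12.0%) also occurred in the genes Gm14328 and Gm6166. Reads with low mapping quality had been removed, so part of the Fabp5 RNA could not be counted.

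**Figure D2:**
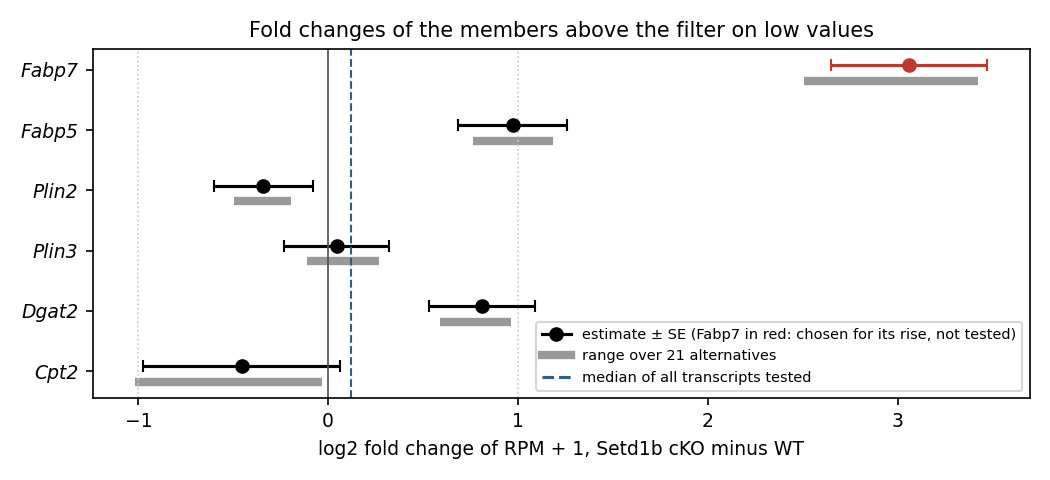
Log2 fold changes of RPM + 1 (Setd1b cKO minus WT) of the 6 members above the filter, as estimates with SE (points) and as ranges over 21 alternatives (grey bars), with the median of all transcripts tested as a dashed line. Fabp7 lies near 3, Fabp5 and Dgat2 just under 1, and the SE bars of Plin3 and Cpt2 cross 0. Dotted lines mark 2-fold.

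Among the remaining members, 5 could be tested against the genotype and 0 were past the threshold, where 5.71% of the 18179 transcripts tested were. At an unadjusted p under 0.05 in limma, 2 were counted, Fabp5 and Dgat2, where 21.7% of all transcripts tested were. With voom on reads recovered from the values, 0 of the 5 were past it. A missed threshold does not show that levels were alike, and the intervals below give the differences that remain possible.

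The perilipins, coat proteins of lipid droplets, had means that differed by less than the spread between cKO oocytes. Plin2 (chromosome 4, 86648386 to 86728030, minus strand), the perilipin found in most cells that store lipid, was at 19.7, 12.4, 17.2 and 10.7 RPM in Setd1b cKO oocytes 1 to 4. In WT oocytes 1 to 3 it was at 17.2, 20.2 and 19.0 RPM. The genotypes overlapped, with cKO oocytes 2, 3 and 4 below every WT oocyte and cKO oocyte 1 above WT oocytes 1 and 3. The Plin2 log2 fold change was -0.34 (SE 0.26, 95% confidence interval -0.92 to 0.24, limma adjusted p = 0.507).

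Plin3 (chromosome 17, 56278962 to 56290610, minus strand), a perilipin that moves between the cytosol and new droplets, was at 18.4, 17.0, 21.9 and 10.5 RPM in Setd1b cKO oocytes 1 to 4. In WT oocytes 1 to 3 it was at 17.6, 13.9 and 16.5 RPM, inside the range of the cKO libraries. Its log2 fold change was 0.04 (SE 0.28, 95% confidence interval -0.57 to 0.66, limma adjusted p = 0.954), and it was below 0 in 6 of the 21 alternatives, the centring on the median transcript among them. A change of over 2-fold in either direction is outside the intervals printed here for both perilipins. No intervals are given for the alternatives, and centring on the median transcript moved the Plin2 log2 fold change to -0.50.

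Dgat2 (chromosome 7, 99153656 to 99182757, minus strand), which makes triacylglycerol at the surface of growing droplets, was higher in every Setd1b cKO library than in any WT library. It was at 11.4, 14.1, 18.3 and 9.09 RPM in Setd1b cKO oocytes 1 to 4 and at 7.69, 6.17 and 6.83 RPM in WT oocytes 1 to 3. Dgat2 was the single one of the 5 members tested besides Fabp7 without overlap between genotypes, where 20.3% of all transcripts tested had none and 13.2% had every cKO oocyte higher. The lowest cKO value of Dgat2 was 1.18 times the highest WT value. The Dgat2 log2 fold change was 0.81 (SE 0.28, 95% confidence interval 0.19 to 1.43, limma adjusted p = 0.119), and its adjusted p was at least 0.0545 in every one of the 21 alternatives.

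Dgat1 (chromosome 15, 76502015 to 76511987, minus strand), which encodes the other DGAT enzyme, was close to the limit of detection. It had 0, 15, 28 and 5 reads in Setd1b cKO oocytes 1 to 4, or 0 to 2.44 RPM, and 7, 0 and 7 reads in WT oocytes 1 to 3, or 0 to 0.655 RPM. A single library in each genotype held no read, and Dgat1 was below the filter of 1 RPM in 3 libraries, so it was not tested. Per kilobase, Dgat2 stood at 5.84 ± 1.75 RPM in the cKO (SD, n = 4) and Dgat1 at 0.564 ± 0.554.

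Cpt1a (chromosome 19, 3323301 to 3385732, plus strand), the liver form of the enzyme that commits fatty acids to mitochondria, was hardly detected. It had 5 and 3 reads in Setd1b cKO oocytes 1 and 3 and 0 in replicates 2 and 4. All 3 WT libraries had 0 reads, which allows up to 0.231 to 0.281 RPM. No fold is given at this depth. Of the other CPT1 genes, Cpt1c was between 0 and 2.39 RPM (log2 fold change 0.32, limma adjusted p = 0.741), and Cpt1b had no transcript under its name.

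Cpt2 (chromosome 4, 107903980 to 107923610, minus strand), the inner membrane enzyme of the shuttle, was readily detected. It was at 22.4, 32.1, 22.7 and 7.11 RPM in Setd1b cKO oocytes 1 to 4 and at 41.5, 36.1 and 11.4 RPM in WT oocytes 1 to 3. The lowest library of each genotype, cKO replicate 4 and WT replicate 3, stood well below the others. The Cpt2 log2 fold change was -0.46 (SE 0.52, 95% confidence interval -1.61 to 0.70, limma adjusted p = 0.682).

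The value of Cpt2 moved most without those libraries, and moved without others as well. Its log2 fold change was -1.02 without WT replicate 3 (limma adjusted p = 0.252) and -0.03 without cKO replicate 4 (0.977). It was -0.13 and -0.23 without WT replicates 1 and 2, and -0.54, -0.71 and -0.55 without cKO replicates 1, 2 and 3. Without both cKO replicate 4 and WT replicate 3, a setting chosen after seeing the data, it was -0.59 (limma adjusted p = 0.141). In the latter case, the cKO libraries lay between 22.4 and 32.1 RPM and the WT libraries at 36.1 and 41.5 RPM.

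The order of the members was compared per kilobase of RNA, from annotated lengths between 880 bases for Fabp7 and 4317 bases for Cpt1a. The length for Plin2 is that of the annotated RNA, 1888 bases, though its oocyte transcript began 57971 bases before the annotated start. In WT oocytes Fabp5 led with 176 ± 51.6 RPM per kb (SD, n = 3). It was followed by Cpt2 with 12.5 ± 6.77, Plin2 with 9.96 ± 0.785, Fabp7 with 7.89 ± 4.34 and Plin3 with 4.38 ± 0.521. From Cpt2 to Plin3, neighbours did not differ beyond their SD. Dgat2 followed with 3.05 ± 0.338 RPM per kb, and Dgat1 and Cpt1a came last.

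In Setd1b cKO oocytes Fabp5 was at 347 ± 101 RPM per kb (SD, n = 4) and Fabp7 stood in the place after it, with 75.0 ± 35.4. Cpt2 with 8.89 ± 4.36, Plin2 with 7.95 ± 2.20, Dgat2 with 5.84 ± 1.75 and Plin3 with 4.66 ± 1.31 RPM per kb formed a group in which neighbours overlapped within their SD. Fabp7 thus passed from among the middle of the members in the WT to a level above Cpt2 and the perilipins in each cKO oocyte.

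Fabp7 and Fabp5 both have RNAs under 1 kb, and the level of short RNAs in each library was measured beside them. In the 1673 transcripts of that class, the median level relative to the mean of 7 libraries was highest in cKO replicate 4, at 0.30 on the log2(RPM + 1) scale, followed by cKO replicate 3 (0.15) and WT replicate 3 (0.12). It was lowest in WT oocytes 1 and 2, at -0.21 and -0.23. Within genotypes, Fabp7 and Fabp5 were highest in the same libraries, cKO replicate 4 (0.76 and 0.50 above the genotype's mean) and WT replicate 3 (0.73 and 0.43 above it), and in the cKO both were lowest in replicate 2. In the WT, Fabp7 was lowest in replicate 1 and Fabp5 in replicate 2.

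**Figure D3:**
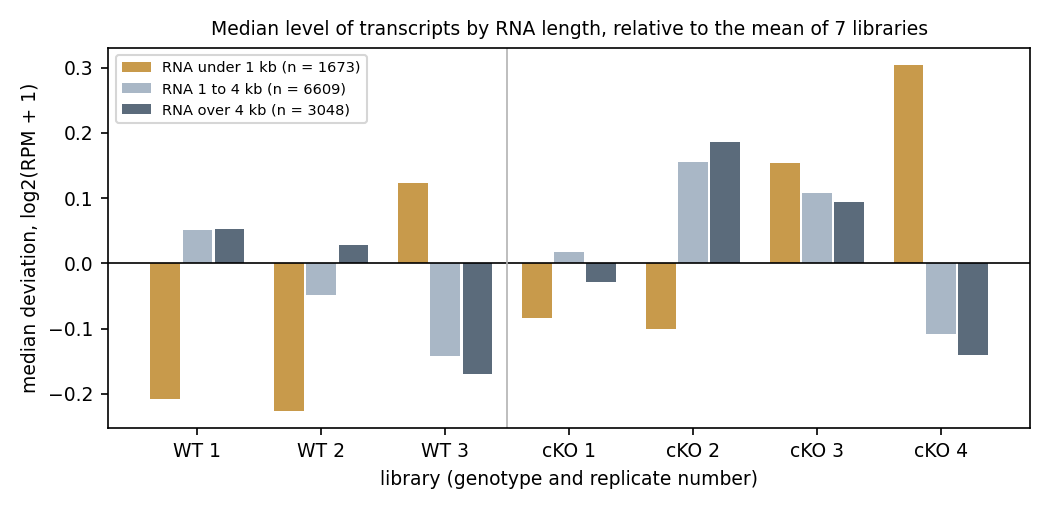
Median deviation of log2(RPM + 1) from the mean of 7 libraries for transcripts with an RNA under 1 kb, of 1 to 4 kb and over 4 kb, in each library (bars from 0). The short RNAs are high in cKO replicate 4 and WT replicate 3, in which the longer classes are low.

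The median log2 fold change was 0.17 in the class under 1 kb, against 0.09 in the class of 1 to 4 kb and 0.08 over 4 kb. With the trend in RNA length removed from each library, the log2 fold change was 2.93 for Fabp7 and 0.84 for Fabp5 (limma adjusted p = 0.0633). For Fabp7 it was 2.80 without cKO replicate 4, 3.42 without WT replicate 3 and 3.17 without both. The part of RNA length in these values was not tested.

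Which transcripts follow Fabp7 most closely was asked among 5822 named transcripts with a mean of at least 8 RPM, by the root mean square difference of log2(RPM + 1) over the 7 libraries, each transcript centred on its own mean. The closest was Mpped2, a metallophosphoesterase, with a difference of 0.32. It was at 26.5, 21.6, 31.5 and 47.5 RPM in Setd1b cKO oocytes 1 to 4 and at 1.62, 3.39 and 9.26 RPM in WT oocytes 1 to 3. Mpped2 was chosen for its likeness in these libraries, and like Fabp7 it was highest in cKO replicate 4 and, within the WT, in replicate 3.

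Next came Ube2e2, a ubiquitin-conjugating enzyme (difference 0.46), Fam126a, which encodes hyccin (0.49), Kbtbd11, a BTB and Kelch domain protein (0.55), and Trpm2, a cation channel (0.58). None of these 5 is a fatty acid binding protein. The measure covers both genotypes, so it includes the genotype difference on which Fabp7 was selected. That these 5 separate the genotypes follows largely from this choice. Fabp5 was in place 145 with a difference of 1.09, where the median transcript had 1.66.

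**Figure D4:**
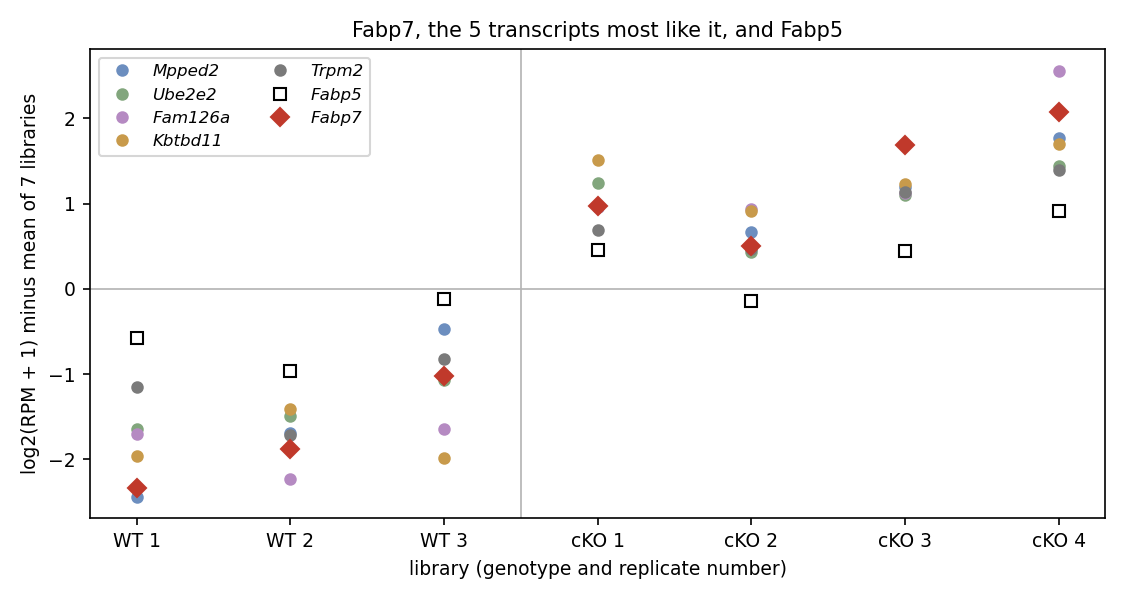
Levels of Fabp7, of the 5 transcripts most like it and of Fabp5 in each library, as log2(RPM + 1) minus the mean of the 7 libraries. Every cKO point of Fabp7 and the 5 lies above every WT point of the same gene, which follows largely from how they were chosen. Fabp5 spans a narrower range, with its genotypes overlapping.

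Other genes of lipid handling were described from 9 lists by role. Of 151 genes listed, 103 had a transcript under their name on their own strand and 77 were tested. Past the threshold, 2 were higher and 2 lower, together 5.19%, where 3.76% of all transcripts were higher, 1.95% lower and 5.71% either. Every cKO library was above every WT library for 11 of the 77 (14.3%), against 13.2% of all transcripts, and below for 9 (11.7%), against 7.14%. The median log2 fold change was 0.18, and 0.12 over all transcripts tested.

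**Figure D5:**
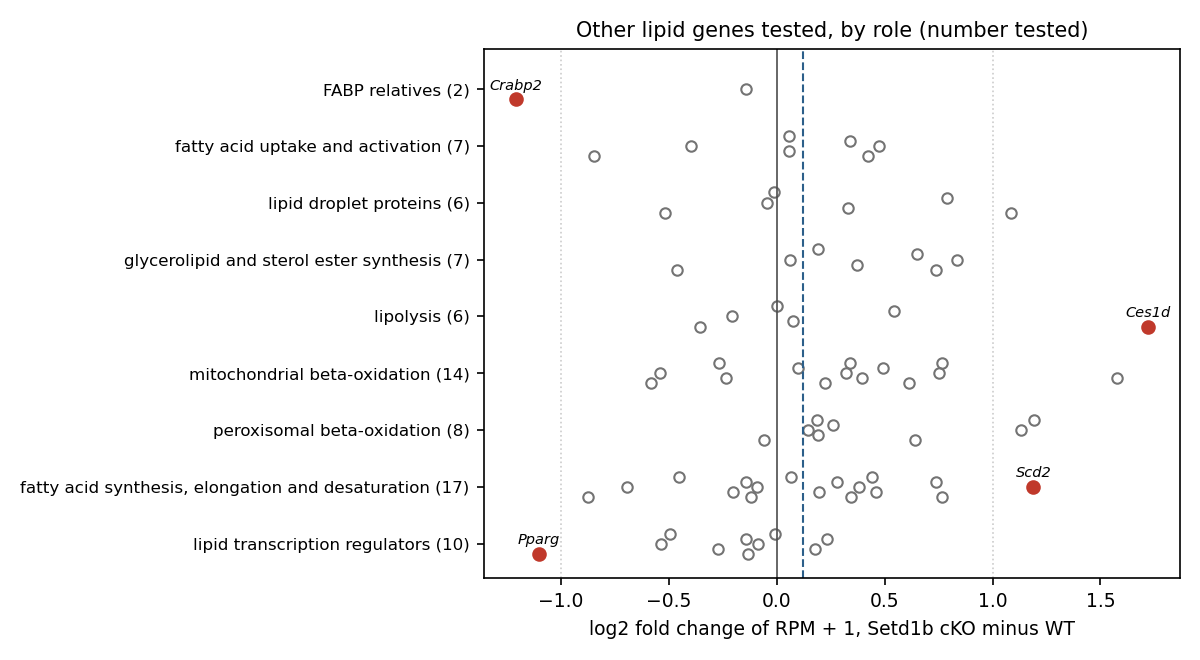
Log2 fold changes of RPM + 1 (Setd1b cKO minus WT) of the 77 other lipid genes tested, in rows by role. Red, named points are past the threshold, the dotted lines mark 2-fold and the dashed line the median of all transcripts tested. Crabp2 and Pparg lie left of the lower line and Ces1d and Scd2 right of the upper one, where Decr1, Decr2, Phyh and Fitm2 also lie without an adjusted p under 0.05.

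Among the relatives of the FABP family, 2 of 10 listed genes could be tested and Crabp2 fell. Crabp2 carries retinoic acid in the cytosol and can hand it to nuclear receptors. It was at 46.7, 38.3, 81.4 and 53.5 RPM in Setd1b cKO oocytes 1 to 4 and at 120, 97.3 and 162 RPM in WT oocytes 1 to 3, without overlap. The Crabp2 difference was -1.21 in log2 fold change, with SE 0.28 and an adjusted p of 0.0333 in limma. Crabp2 was no longer past the threshold without a filter (adjusted p = 0.146 in limma), or when cKO replicate 1, cKO replicate 2 or any WT replicate was left out (adjusted p up to 0.104).

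Fabp6, the ileal bile acid binding member of the family, was at 11.7 to 22.8 RPM in the cKO and 12.1 to 23.1 RPM in the WT (log2 fold change -0.14, limma adjusted p = 0.850). Fabp4, the member typical of fat cells, was between 0 and 0.583 RPM.

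Of the transcription regulators, 10 of 18 were tested and Pparg fell. PPARG is a nuclear receptor that binds fatty acids and drives genes of fat storage. Pparg was at 57.7, 47.9, 49.2 and 50.2 RPM in Setd1b cKO oocytes 1 to 4 and at 117, 117 and 101 RPM in WT oocytes 1 to 3, so that the genotypes were well apart. The difference was -1.10 in log2 fold change, with SE 0.19 and an adjusted p of 0.0101 in limma. It was past the threshold in 19 of 21 alternatives and not without WT replicate 1 or WT replicate 2, with adjusted p up to 0.0601. None of the other regulators tested was past it.

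Among lipolysis genes, 6 of 11 were tested and Ces1d, a carboxylesterase that hydrolyses triacylglycerol, rose. It was at 13.2, 14.2, 9.40 and 11.5 RPM in Setd1b cKO oocytes 1 to 4 and at 4.54, 1.31 and 3.74 RPM in WT oocytes 1 to 3. The difference was 1.72 in log2 fold change, with SE 0.34 and an adjusted p of 0.0157 in limma. Ces1d was not past the threshold without a filter (0.0902), without cKO replicate 1 or without WT replicate 2 (up to 0.0632). Ces1d lies among tandem copies whose shared reads were not measured here. Lpl, the most abundant gene of this list with a mean of 77.6 RPM, was at 61.3 to 96.8 RPM in the cKO and 69.1 to 90.3 RPM in the WT, with a 95% confidence interval of -0.50 to 0.50 for the log2 fold change.

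Of the genes of fatty acid synthesis, elongation and desaturation, 17 of 27 were tested and Scd2, a desaturase that makes monounsaturated fatty acids, rose from a low level. Scd2 was at 1.88, 2.96, 2.26 and 1.28 RPM in Setd1b cKO oocytes 1 to 4 and at 0.162, 0.385 and 0.468 RPM in WT oocytes 1 to 3. The difference was 1.19 in log2 fold change, with SE 0.29 and an adjusted p of 0.0388 in limma. The Scd2 value moved with the pseudocount, from 0.41 with 5 RPM to 2.70 for the log2 RPM as deposited. The call was lost in 11 of 20 alternatives, among them voom on recovered reads, centring, quantile normalisation and leaving out any library other than cKO replicate 4. Me1, a source of the NADPH used in fatty acid synthesis and the most abundant gene of this list with a mean of 229 RPM, had a difference of -0.69 on the log2 scale, short of the threshold (limma adjusted p = 0.266).

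The other lists had 0 genes past the threshold. These were uptake and activation (7 of 16 tested, median log2 fold change 0.06), lipid droplet proteins (6 of 18, 0.16), glycerolipid and sterol ester synthesis (7 of 16, 0.37), mitochondrial beta-oxidation (14 of 20, 0.33) and peroxisomal beta-oxidation (8 of 15, 0.23). Over 2-fold but with adjusted p of 0.0733 to 0.0996 in limma were Decr1 (log2 fold change 1.58), Decr2 (1.19), Phyh (1.13) and Fitm2 (1.08), named after their values were seen. Over the alternatives these ran from 0.58 to 4.58 for Decr1, 0.57 to 1.72 for Decr2, 0.76 to 1.43 for Phyh and 0.61 to 1.39 for Fitm2, and Decr1 and Phyh were past the threshold in 3 alternatives each, Decr2 in 1 and Fitm2 in 0. Decr1, a reductase for unsaturated fatty acids in mitochondria, rested on 0, 6 and 0 reads in WT oocytes 1 to 3. The most abundant genes of these lists were Dbi, the acyl-CoA binding protein (mean 197 RPM), Mettl7a1 (143 RPM), Soat1, which esterifies cholesterol (57.9 RPM), Etfdh, which passes electrons from fatty acid oxidation to the respiratory chain (621 RPM), and Hsd17b4 (23.7 RPM). None of these 5 was past the threshold. Mettl7a1, a membrane protein of lipid droplets, was lower in every cKO oocyte (106 to 134 RPM) than in any WT oocyte (153 to 185 RPM), a difference of -0.52 in log2 fold change (adjusted p = 0.146 in limma).

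Hilpda, an inhibitor of lipolysis on lipid droplets, was singled out after its values were seen. It was at 37.4, 35.5, 37.2 and 44.6 RPM in Setd1b cKO oocytes 1 to 4 and at 21.1, 24.1 and 20.8 RPM in WT oocytes 1 to 3. The genotypes did not overlap, and the difference of 0.79 in log2 fold change, with SE 0.21 and an adjusted p of 0.0484 in limma, was short of 2-fold. Its adjusted p ran up to 0.160 over the alternatives.

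Markers of other ovarian cells were read beside Fabp7. Of 13 granulosa and cumulus cell markers, 11 had a transcript, and they summed to 75.0 to 85.8 RPM in the Setd1b cKO and 49.9 to 67.7 RPM in the WT. Most of this was Nr5a2, at 32.5 to 50.8 RPM in the cKO and 27.4 to 28.3 RPM in the WT, and Cyp19a1, at 19.5 to 30.6 and 17.1 to 27.3 RPM. Nr5a2 was higher in every cKO oocyte than in any WT oocyte, as were 13.2% of all transcripts tested, and Wt1 was at most 0.494 RPM, from 6 reads. Foxl2, Amh and Gatm were at 0 in all 3 WT libraries and at most 0.174 RPM in any cKO library. Fst was at 0 in the WT and at most 0.816 RPM in the cKO. Hsd17b1 was at most 0.486 RPM in the WT and 2.06 RPM in the cKO. Fshr and Kitl overlapped between genotypes. Of the 5 granulosa markers tested, 0 were past the threshold, where 5.71% of all transcripts tested were. Inha was at 7.03, 11.4, 13.2 and 0.583 RPM in Setd1b cKO oocytes 1 to 4 and at 0.810, 4.32 and 0 RPM in WT oocytes 1 to 3 (log2 fold change 1.70, limma adjusted p = 0.225). Inha was past the threshold in 3 of 21 alternatives, all of which take cKO replicate 4 out of the estimate, with adjusted p down to 0.0135 in limma. Of 6 markers of theca, stroma and endothelium, 4 had a transcript, and they summed to 7.49 to 18.3 RPM in the cKO and 13.2 to 20.8 RPM in the WT, mostly Pecam1.

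Of 6 markers of fat cells and macrophages, 2 had a transcript. Cd68, a lysosomal protein of macrophages and other cells, rose from 2.27, 2.16 and 3.74 RPM in WT oocytes 1 to 3 to 9.01, 8.98, 4.61 and 13.0 RPM in Setd1b cKO oocytes 1 to 4 (log2 fold change 1.36, limma adjusted p = 0.0435), and was past the threshold in 9 of 21 alternatives. Csf1r, the other, was between 0.165 and 1.03 RPM. The part of such cells in the Fabp7 values was not tested.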

How the data were processed

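The authors trimmed single reads, mapped them with Hisat to GRCm38, removed hits of low mapping quality and counted reads in SeqMonk over oocyte transcripts with isoforms merged. Whether strand was used in counting is not given in the sources used here. The deposited values are log2 RPM by all mapped reads, with 0.9 read in place of 0. Reads were recovered from the steps of these values, at least 99.96% of which were whole within 0.02 read. A gene took the transcript that carried its name on the same strand, and the highest mean if there were several.

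Transcripts that reached 1 RPM in 3 or more libraries were compared by limma 3.58.1 under R 4.3.3 (lmFit and eBayes with trend, two-sided) on log2(RPM + 1), with Benjamini-Hochberg adjustment over 18179 transcripts. The study used a count model. Here the log scale was used because the deposited unit is log2 RPM, with voom on the recovered reads as an alternative. The threshold was an adjusted p under 0.05 and over 2-fold. The 6 members above the filter were refitted under 21 alternatives. RNA lengths were from GENCODE M21, and figures were drawn in Python 3.11.15 with matplotlib 3.10.9.

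Members, lists and tests were chosen with earlier results of these data known. Named were the members, up to 6 genes past the threshold and the most abundant gene of each list, 5 transcripts most like Fabp7 and its neighbours. Fabp4, Fabp6, Cpt1b, Cpt1c, Hilpda, Decr1, Decr2, Phyh, Fitm2 and single markers were named outside this rule, after their values were seen.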

Additional observations from a re-analysis of the deposited data

How the results depend on the processing

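Fabp7 kept its direction in all 21 alternatives. Fabp5 gained the threshold in 2 of them, and Plin2, Dgat2 and Cpt2 kept direction and side in all 21. The direction of Plin3, near 0, was reversed when libraries were centred on the median transcript (-0.11), under quantile normalisation (-0.073), with the trend in RNA length removed (-0.030), and without cKO replicate 1, cKO replicate 3 or WT replicate 2. With a library left out it ran from -0.087 to 0.25, and the cause was not tested. The alternative that sums the transcripts of a gene gave the same values, since each member had 1.

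Over all transcripts, 683 were higher and 355 lower. A pseudocount of 5 RPM gave 315 higher, no filter 174 higher and 129 lower, quantile normalisation 428 higher, voom 443 higher and, chosen after seeing the data, removal of the length trend 308 higher, on the 11330 transcripts with an annotated length. Centring gave 458 higher and 531 lower, and scaling to the reads within transcripts 836 and 310. Leaving out 1 library gave 172 to 857 higher and 117 to 435 lower, with the lowest counts without WT replicate 2. In the other lipid genes, 2 were higher and 2 lower. With no filter 0 were higher and 1 lower. Higher was 1 with a pseudocount of 5 RPM, with a mean of at least 4 RPM, after centring (with 3 lower), after quantile normalisation and with voom. Without cKO replicate 4 and WT replicate 3 together, also added later, 5 were higher. Leaving out 1 library gave 0 to 4 higher and 0 to 2 lower. Of the 5 members tested besides Fabp7, 0 to 1 were past the threshold with a library left out, and 1 without cKO replicate 4 and WT replicate 3 together.

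Replicate numbers are shared by the genotypes, but the deviations of same-numbered libraries were mixed (correlations of 0.19, 0.29 and -0.13), and 3 of the 6 libraries correlated best with their own number, so the test has no pairing. With a replicate block 924 transcripts were higher and 479 lower, and 5 of the other lipid genes were higher. Since cKO replicate 4 has no WT library of its number, this fit also takes it out of the fold changes, and leaving it out without a block gave 857 and 435, with 4 lipid genes higher. No fold is given for Cpt1a, with 0 reads in all 3 WT libraries, and the folds of genes with few WT reads, such as Scd2 and Decr1, depend on the pseudocount.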
